A study of Mus musculus with 4 samples.

Results

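Among the sites that SOX3 chromatin immunoprecipitation sequencing (ChIP-seq) marked in the neonatal mouse testis, 5 peaks lay in introns of 4930415F15Rik, Nxn and Ralgapa2. They were chosen by the gene named nearest and by an intronic class in the authors' table of 778 common peaks. The genes had been picked for their high peak scores, so scores, ranks and widths below are a description without a test. Of the 5 peaks, 3 belonged to Nxn and 1 to each of the others. They were 5 of the 157 intronic common peaks whose detailed class named no repeat or CpG island. That class describes the centre of a peak, so a repeat elsewhere in it would not appear.

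Testes of mice of the 129/SvJ strain at postnatal day 7 were used in all samples. The SOX3 group comprised 3 replicate ChIP samples, precipitated with a goat polyclonal antibody to human SOX3, and 1 input sample without antibody served as the study's background. The mice were of an F6 generation of a Sox3 null line of mixed background crossed onto 129/SvJ, and no genotype was given for a testis. Whole testis was used, so the cell type that carried the binding was not separated. The deposited lists held 2912, 2598 and 2734 peaks in replicates 1, 2 and 3, in mm9 coordinates. Read depth is unknown and the input was not analysed here. The spread given is that between these samples, since no source used here ties a testis to an animal.

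SOX3 is a transcription factor of the SOXB1 group that bends DNA through a high-mobility-group domain. In the postnatal testis it is known from spermatogonia, the dividing germ cells at the base of the tubules. Nxn encodes nucleoredoxin, a thioredoxin-family protein that binds Dishevelled and restrains Wnt signalling. Ralgapa2 encodes a catalytic subunit of the complex that switches off the small GTPases RalA and RalB, which direct vesicle delivery through the exocyst. 4930415F15Rik is listed under the current symbol Spata48, a gene named for spermatogenesis, in the RefSeq table of assembly GRCm38.p6.

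The 4930415F15Rik peak scored highest of the intronic common peaks outside repeats in every replicate. It lay in intron 4 of the 5 introns of NM_028669, on chromosome 11 from 11397629 to 11398506, 8798 bp downstream of the transcription start site (TSS). The authors' score, a number per peak whose scale is not stated, was 1172 in replicate 1, 1007 in replicate 2 and 970.0 in replicate 3, averaging 1049 ± 107 (SD, n = 3). These scores ranked 7th, 5th and 5th in their lists. They reached 40.4, 48.4 and 44.9% of the highest score of the list, and 24.5, 20.9 and 20.5 times the list's median. Replicate 1 was highest and the other two lay close together.

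The strong Nxn peak followed in every list. It lay in intron 1 of the 7 introns of NM_008750, on chromosome 11 from 76191173 to 76191993, 21060 bp downstream of the TSS. Scores were 954, 798 and 790.15 in replicates 1, 2 and 3, averaging 847 ± 92.2 (SD, n = 3), with ranks of 11, 10 and 9. The order of the replicates was that of the 4930415F15Rik peak. In each list the Nxn score was below that of 4930415F15Rik, but the highest Nxn score was close to the lowest one of 4930415F15Rik in another list. Scores of different lists were not scaled to each other.

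The Ralgapa2 peak was the nearest of the 5 to a TSS. It lay in intron 1 of the 40 introns of NM_001033348, on chromosome 2 from 146335547 to 146336272, 1831 bp downstream of the TSS. Scores were 499.99, 353 and 525 in replicates 1, 2 and 3, averaging 459.5 ± 93.0 (SD, n = 3), with ranks of 26, 31 and 19. Here replicate 3 was highest and replicate 2 lowest, unlike at the 4930415F15Rik and strong Nxn peaks.

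The other Nxn peaks were weak and each was found in 2 lists. The distant one, from 76148609 to 76148883 and 63897 bp downstream of the TSS, also lay in intron 1. It scored 79.3 in replicate 1 and 94.02 in replicate 2, with ranks of 349 and 232. Replicate 3 had no peak there, and its nearest peak on the chromosome was the strong Nxn peak.

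**Figure D1:**
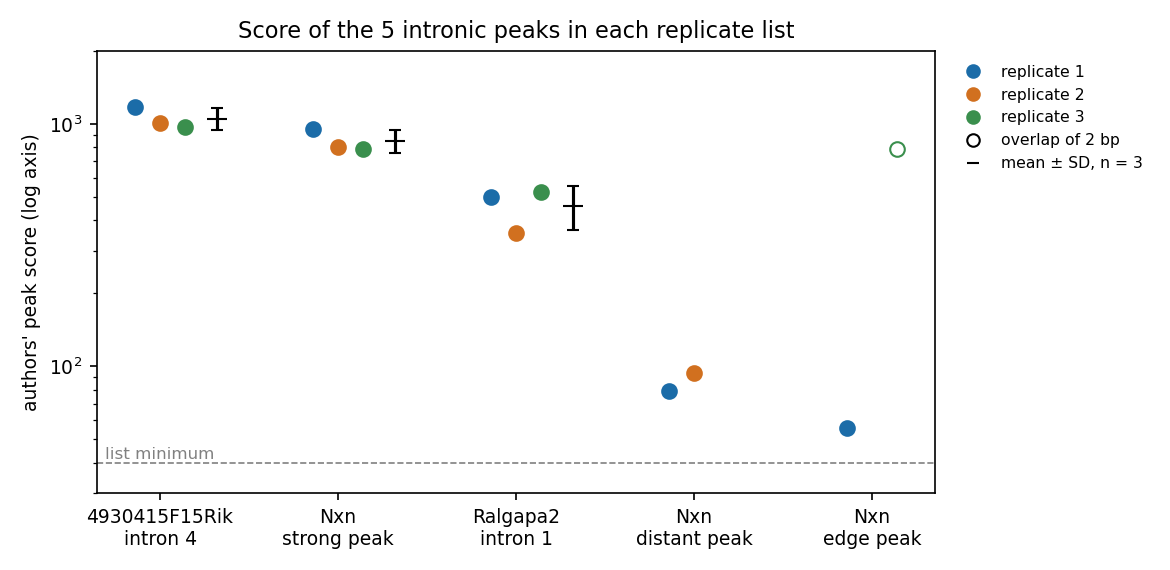
Authors' score (log axis) of the 5 intronic peaks in each replicate list, with the mean and SD where all 3 lists held the peak. The 4930415F15Rik, strong Nxn and Ralgapa2 peaks scored from 353 to 1172, the distant Nxn peak 79.3 and 94.02, and the open circle is a peak that reached the Nxn edge peak by 2 bp.

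The remaining Nxn peak lay at the edge of the strong one and rested on a 2 bp overlap. It ran from 76191996 to 76192164, 2 bp beyond the end of the strong common peak, and was a separate peak in replicate 1 only, with a score of 55.6 and a rank of 890. In replicate 3 the strong peak ended at 76191997 and so reached it by 2 bp, which was 0.248% of that replicate peak. The score of 790.15 that an overlap of 1 bp or more assigns to it is therefore that of the strong peak. In replicate 2 the strong peak stopped 3 bp short. Of all 778 common peaks this was the 1 peak whose second-best replicate overlap was 5 bp or less, and 11 peaks (1.41%) had one under 10% of their width. With a 50% reciprocal overlap only replicate 1 held it, so intron 1 of Nxn held 2 separate sites, 42.3 kb apart, by that measure.

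A small adjacent peak, here called a shoulder, also stood beside the 4930415F15Rik peak. In replicate 3 a peak of 148 bp with a score of 56.4 began after a gap of 1 bp, on the side of higher coordinates. Replicates 1 and 2 had no separate peak there. Their main peaks ended at 11398506 and 11398504, past the shoulder's start at 11398442, and so covered part of it. At Nxn the gap in replicate 1 was 2 bp, the shoulder 169 bp wide and also on the side of higher coordinates. The main peak scored 17.2 times the shoulder at both genes. Pairs of peaks within 10 bp of each other numbered 14, 8 and 9 in the lists of replicates 1, 2 and 3. They held 0.962, 0.616 and 0.658% of the peaks. The Ralgapa2 peak had no such neighbour in any of the 3 lists.

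**Figure D2:**
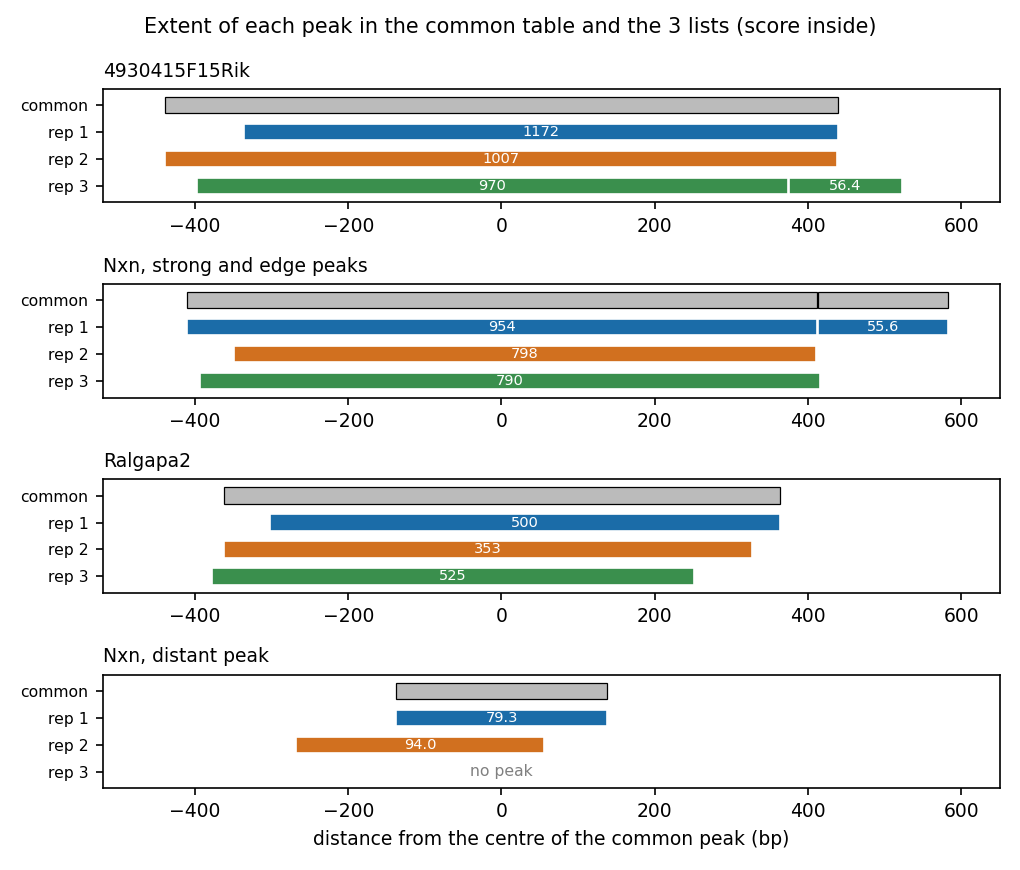
Extent of each peak in the common table (grey) and in the 3 lists, in bp from the centre of the common peak, with the authors' score inside each bar. The lists share 759 bp at the strong Nxn peak, 709 bp at 4930415F15Rik and 553 bp at Ralgapa2, while replicate 3 at 4930415F15Rik and replicate 1 at Nxn end in a separate shoulder scoring 56.4 and 55.6.

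Position between the replicates agreed more closely at the strong Nxn and 4930415F15Rik peaks than at the Ralgapa2 peak. The Nxn peak shared 759 bp between all 3 lists, the 4930415F15Rik peak 709 bp and the Ralgapa2 peak 553 bp. In the least similar pair of replicates the overlap was 92.4% of the joint extent at Nxn, 84.7% at 4930415F15Rik and 74.6% at Ralgapa2. The same value had a median of 66.7% (quartiles 51.1 and 78.4%) over the 80 other common peaks that scored 100 or more in every list. It was lower than at Nxn for 78 of these 80, lower than at 4930415F15Rik for 69 and lower than at Ralgapa2 for 55. Midpoints lay at most 30 bp apart at Nxn, 64 bp at 4930415F15Rik and 94 bp at Ralgapa2, against a median of 82.2 bp for the others. The overlap and midpoint distance of the Ralgapa2 peak were thus within the quartiles of those peaks (42.4 and 154.9 bp for the distance). Overlap as a share of extent depends on width, which belongs to the values that chose the members. The common peaks were 821 bp wide at Nxn, 878 bp at 4930415F15Rik and 726 bp at Ralgapa2, against a median of 635 bp for the 80 others, whose median score was 287 in replicate 1, and no test was made. The distant Nxn peak overlapped by 47.3% of the joint extent between replicates 1 and 2.

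Scores differed less between replicates at the 4930415F15Rik and strong Nxn peaks than at the Ralgapa2 peak. The highest score was 1.21 times the lowest at 4930415F15Rik and 1.21 times at Nxn, and 1.49 times at Ralgapa2. Over the 80 other peaks this ratio had a median of 1.50 (quartiles 1.29 and 1.90). It was lower than at 4930415F15Rik for 11 of them and lower than at the strong Nxn peak for 11. Replicate 1 was the highest at 41 of the 80 (51.2%), replicate 2 at 19 and replicate 3 at 20. The median scores of the 80 were lower than the member scores, at 287, 243 and 252 in replicates 1, 2 and 3. The genes were picked for their scores and the lists were not scaled to each other, so nothing is read from these ratios.

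Of the 5 peaks, 3 were in all 3 lists, against 29.9% of all common peaks and 33.1% of the 157 intronic peaks outside repeats. The same 3 scored 100 or more in each list, as did 10.7% of all common peaks (83 of 778, 95% Clopper-Pearson interval 8.59 to 13.1%, counting error only) and 8.92% of the 157 (14 peaks). At a 50% reciprocal overlap 3 of the 5 stayed in all 3 lists, where 19.7% of the 157 did. These genes were picked for high peak scores, so nothing is read from any of these shares.

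Only the 233 common peaks found in all 3 lists have a mean rank over the lists. In that order the 4930415F15Rik peak stood 5th, the strong Nxn peak 10th and the Ralgapa2 peak 21st. Among the 52 of these that were intronic and outside repeats their places were 1, 2 and 4. Within each single list, where peaks missing from another list also count, the Ralgapa2 peak was at place 5. In replicate 3 this counts the Nxn edge peak, which takes the score of the strong one, and the Farp1 peak described next. In replicate 1 it stood behind a peak with Ypel1 as nearest gene, named here after its values were seen, which scored 541, 143 and 189.7 in replicates 1, 2 and 3. Place 3 was held by an intronic peak of BC107364 on chromosome 3, named here after its values were seen. It scored 582, 411 and 458 in replicates 1, 2 and 3. In replicate 2 this score was the same as that of a peak in a U1 small nuclear RNA repeat 9072 bp away, and both common peaks were 672 bp wide. Of the 9 scores of the 4930415F15Rik, strong Nxn and Ralgapa2 peaks, 0 recurred in their lists. Shared scores were uncommon in general. Of the peaks that scored 100 or more, 12 of 223, 22 of 203 and 10 of 196 in replicates 1, 2 and 3 shared their score with another such peak. With shares this low, nothing is read from the 0 of 9.

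The 5 peaks that came next in this order had lower mean scores, which follows largely from the order itself. An intron 1 peak of Farp1 scored 370.02, 311 and 563, above the Ralgapa2 peak in replicate 3. A peak with Phtf1os as nearest gene, in an intron of Magi3, scored 330.4, 192 and 346. One with Zzz3 as nearest gene, in an intron of Ak5, scored 170.26, 458 and 239, above the Ralgapa2 peak in replicate 2. The peaks of Cox20, a factor of cytochrome oxidase assembly, and Mocos, the molybdenum cofactor sulfurase, scored at most 238 and 250.02. The ratio of the highest to the lowest score was 1.37 at Cox20 and between 1.68 and 2.69 at the other 4. It was 1.49 at Ralgapa2 and 1.42 at the BC107364 peak. A low score in any list also lowers the mean rank, so nothing is read from these ratios.

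**Figure D3:**
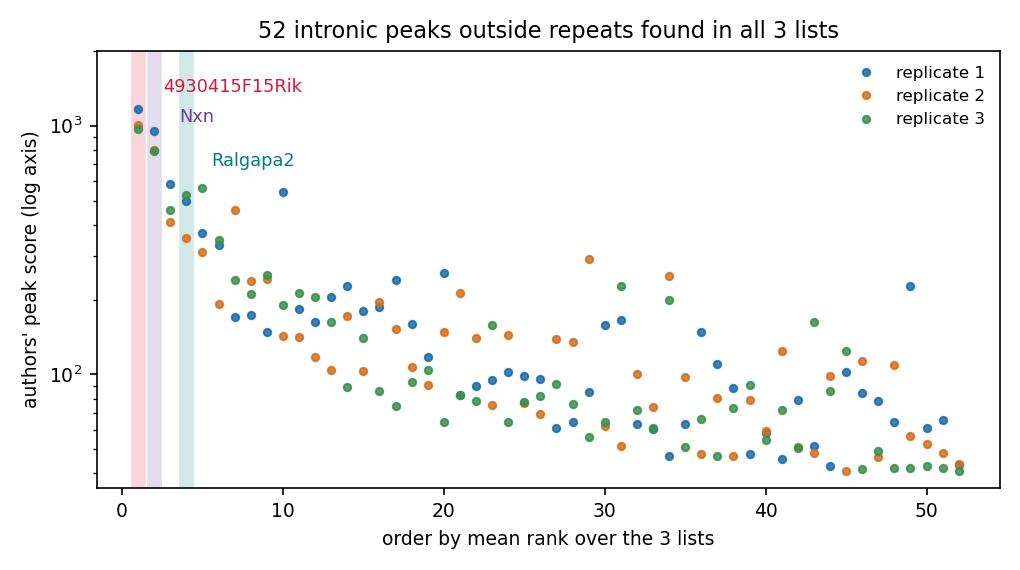
Authors' score (log axis) in each replicate of the 52 intronic peaks outside repeats that were found in all 3 lists, in the order of their mean rank. The shaded peaks of 4930415F15Rik, Nxn and Ralgapa2 hold places 1, 2 and 4.

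The 3 strong peaks were wider than the median peak of each list. Widths in replicates 1, 2 and 3 were 775, 876 and 771 bp at 4930415F15Rik, 821, 759 and 808 bp at Nxn, and 666, 689 and 628 bp at Ralgapa2. The median peak of the lists was 165, 164 and 153 bp wide, and peaks scoring 300 or more had medians of 691.5, 571 and 547.5 bp. Against these last medians, the Ralgapa2 peak was narrower in replicate 1 and the other widths of the strong peaks were larger. The distant Nxn peak, at 275 and 323 bp, was also wider than the median peak of its lists. The widest peaks of the lists, 8188, 5922 and 6755 bp, were several times wider than any of these 5.

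**Figure D4:**
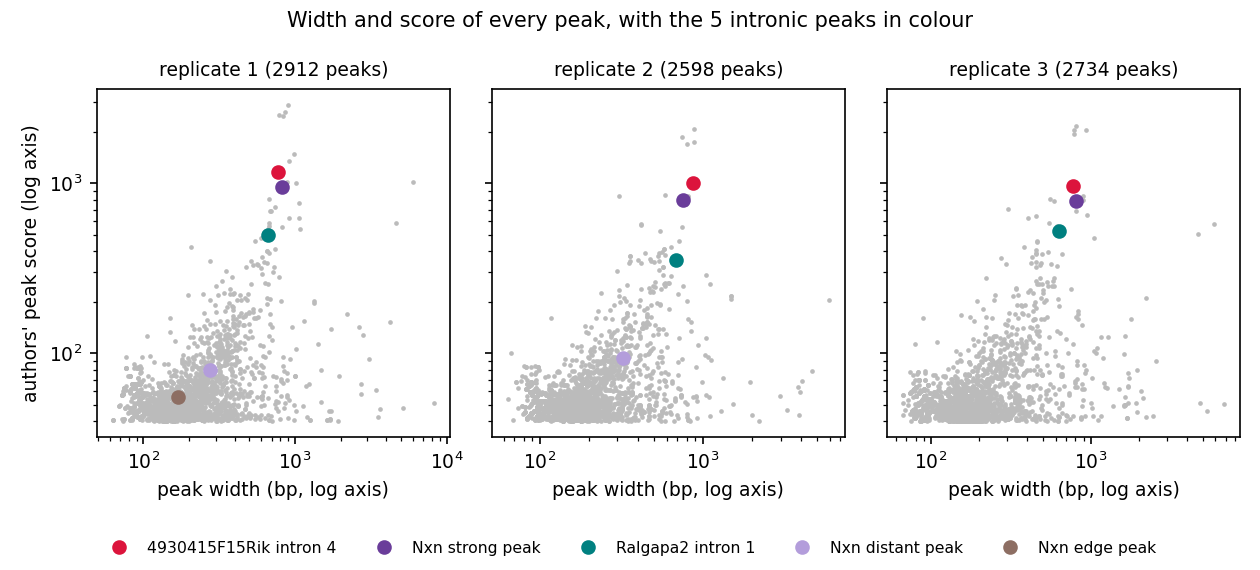
Width (bp, log axis) and authors' score (log axis) of every peak in the 3 lists (grey), with the 5 intronic peaks in colour. The 4930415F15Rik, strong Nxn and Ralgapa2 peaks lie between 628 and 876 bp in the upper arm of the cloud, and the weak Nxn peaks lie within its dense part.

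Other SOX3 peaks were few around these introns, as around most intronic peaks outside repeats. Within 500 kb of the 4930415F15Rik peak, replicate 1 had 0 further peaks and replicates 2 and 3 had 1 each, with scores of 42.8 and 53.6. The shoulder in replicate 3 overlaps the common peak and is left out of this count. The Nxn shoulder lies outside the strong common peak and is counted below. Around the Ralgapa2 peak replicates 1 and 3 had 1 each, with scores of 60.1 and 44.9, and replicate 2 had 0. Around the strong Nxn peak the further peaks were its shoulder, the distant peak and 1 peak of replicate 1 with a score of 40.3. This made 3 further peaks within 500 kb in replicate 1, 1 in replicate 2 and 0 in replicate 3. Other intronic peaks outside repeats had a median of 1 further peak within 500 kb in each list, and 77.6, 75.7 and 76.97% of them had 0 within 50 kb in replicates 1, 2 and 3.

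The nearest other common peak lay 3.58 Mb from the 4930415F15Rik peak, with Pom121l12 as nearest gene, and 4.05 Mb from the Ralgapa2 peak, with Kif16b as nearest gene. On their other sides stood peaks of Sec14l3 at 7.43 Mb and of Srsf6, a splicing factor, at 16.4 Mb. The scores of these 4 neighbours were between 43.2 and 86.1. Beyond Nxn itself, the nearest common peaks were those of Olfr381, 2.88 Mb from the strong peak, and of Rab11fip4, 3.21 Mb from the edge peak. A gap above 3 Mb was found at 26 of the 152 other intronic peaks outside repeats (17.1%, median gap 0.761 Mb). The first 30 by mean rank were taken among the common peaks found in all 3 lists. The 27 others of these had a median gap of 4.51 kb, and 1 of them, at the ribosomal RNA gene Rn45s, had a gap above 3 Mb (3.91 Mb). Counted to the nearest common peak of another gene, as for Nxn, their median gap was 369 kb and 7 of the 27 (25.9%) had a gap above 3 Mb, among them the Eapp peaks. By that count the other intronic peaks outside repeats had a median of 1.001 Mb, with 31 of 152 (20.4%) above 3 Mb. The difference was not tested.

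**Figure D5:**
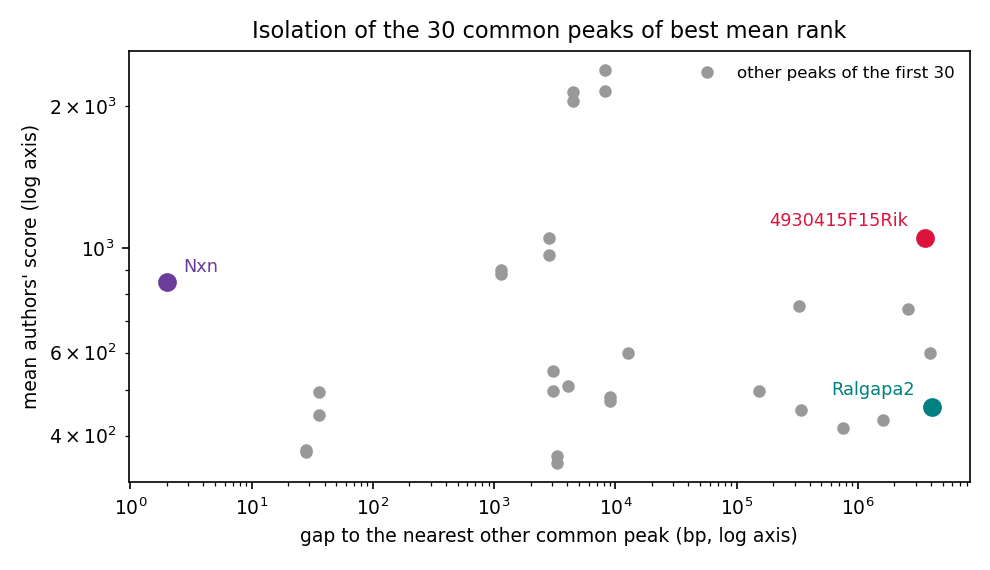
Gap to the nearest other common peak (bp, log axis) and mean authors' score (log axis) of the first 30 common peaks by mean rank. The 4930415F15Rik and Ralgapa2 peaks stand at 3.58 and 4.05 Mb, most of the others within clusters, and Nxn at 2 bp because of its edge peak.

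Intron 1 held 4 of the 5 peaks, at 2 of the 3 genes, and 30.6% of the 157 intronic peaks outside repeats (48 peaks). The 3 Nxn peaks share 1 intron and do not count as separate cases. Over the 157, the distance to the nearest TSS ran from a lower quartile of 8123 bp over a median of 18547 bp to an upper quartile of 49406 bp. Of the 157, 9 lay within 2 kb of a TSS, among them the Ralgapa2 peak. The RefSeq table listed 0 small RNA genes within Nxn, Ralgapa2 or Spata48 in assembly GRCm38.p6. The share of all genes that hold one is not given here, so nothing is read from that count. Within Ralgapa2 the table listed a long non-coding RNA, A930019D19Rik, and a pseudogene, Gm14117. The 2 protein-coding genes on each side were Vwc2, Zpbp, 4930512M02Rik and Ikzf1 for Spata48, Glod4, Mrm3, Timm22 and Abr for Nxn, and Cfap61, Insm1, Kiz and Xrn2 for Ralgapa2. Zpbp, which encodes an acrosomal protein that takes part in binding to the egg coat, overlaps Spata48 in this table. Of these 12 neighbours, 0 stood nearest to a common peak, where 2.52% of 21900 protein-coding genes did. With a share this low, nothing is read from the 0.

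Few other genes of the pathways of Nxn and Ralgapa2 were nearest to a SOX3 common peak, and few genes were overall (2.52% of 21900 protein-coding genes). Of 34 thioredoxin-family and peroxiredoxin-system genes, 2 were (5.88%, 95% interval 0.720 to 19.7%), namely Nxn and Txndc2, a thioredoxin of the sperm tail. The Txndc2 peak was exonic, 1228 bp downstream of the TSS, with scores of 139 and 162 in replicates 1 and 2 and no peak in replicate 3. Of 28 genes of the Wnt receptor complex, Dishevelled and its partners, 1 was (3.57%, 0.0904 to 18.3%). This was Axin2, a feedback inhibitor of Wnt signalling, whose peak was intergenic, 91479 bp downstream, and scored 83.3 in replicate 1 and 52.3 in replicate 3.

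Of 27 genes of the Ral GTPases, their regulators and their effectors, 1 stood nearest to a common peak (3.70%, 0.0937 to 18.97%), and this was Ralgapa2 itself. The relatives Ralgapa1 and Ralgapb, the GTPases Rala and Ralb and the exocyst subunits were not. Of 14 genes of the TSC complex and related GAP-domain proteins 0 were, which allows up to 23.2%. Of 15 testis cell type markers 0 were, which allows up to 21.8%. These intervals include the share over all genes, and neither Nxn nor Ralgapa2 is independent of the lists, which were built around them.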

How the data were processed

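SOX3 ChIP-seq peaks of mouse testis were analysed from 3 replicate peak lists and 1 table of common peaks. Per the labels' protocols, formaldehyde fixation (1%) lasted 8 min and sonication 15 min, and single reads of 50 bp were sequenced. The submitters' processing notes name Bowtie2 2.0.0 and mm9. Peak names begin with MACS, per the deposited lists, which were called per sample. Caller settings, duplicate removal and the handling of reads that map to several places, which could change peaks in repeated sequence, are stated in no source used here.

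The deposited score of each peak is the authors' value, with a list minimum of 40. The common table came from HOMER's annotatePeaks.pl on mm9, run on peaks of at least 2 samples, per the file headers. Its own deposited score was left out, being 0 in each of the 778 rows, and 658 rows had the ends of 1 replicate peak.

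A common peak took the highest score among replicate peaks that overlapped it by 1 bp or more, and ranks were taken within a list. Overlap counts were checked with bedtools 2.31.1 and tested on made-up peaks (Python 3.11.15, pandas 2.3.3). Alternatives were a 50% reciprocal overlap, a higher score minimum, summed scores, other orderings and leaving out each replicate. No test was run, since the values chose the members. The members and gene lists were chosen with earlier results of these data known. The genes planned to be named were those of the rule, the next 5 intronic peaks outside repeats, the nearest common peaks, list genes with a common peak and 2 neighbours on each side. BC107364, Ypel1, Rn45s and Eapp were named after their values were seen. Host genes of peaks, genes within Ralgapa2 and some list genes without a common peak were named as well. Gene names were matched to the RefSeq table of GRCm38.p6, and none of its coordinates is printed. No peak sequence was used here.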

Additional observations from a re-analysis of the deposited data

How the results depend on the processing

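The number of the 5 peaks found in all lists used was 3 with a 50% reciprocal overlap and with a score minimum of 100, and between 3 and 4 when replicates were left out in turn: it was 4 without replicate 2, which brought in the Nxn edge peak, and 4 without replicate 3, which brought in the distant Nxn peak. The places 1, 2 and 4 of the 4930415F15Rik, strong Nxn and Ralgapa2 peaks were the same by mean score, by score over the list's median and without each replicate. In the order of any single list the Ralgapa2 peak was at place 5. With all intronic peaks found in all 3 lists ordered together, repeats included, the places were 5, 6 and 9. The mean score of the Nxn edge peak was 423 over replicates 1 and 3, 55.6 with a 50% reciprocal overlap or without replicate 3, and 790.15 without replicate 1. The share of common peaks with a score of 100 or more in every list, 10.7%, was 5.53% at a score of 200 or more, and 13.2 to 14.4% when 1 replicate was left out, since fewer lists then had to pass. No paired analysis was possible because only 1 group had peak lists. Read depth is unknown, so the depth at which the distant Nxn peak would appear in replicate 3 cannot be given.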
